A study of Mus musculus with 4 samples.

Results

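The genes described are 31 genes of the lysosome and of autophagy, the pathway in which a cell wraps its own material in membrane and delivers it to the lysosome. They were chosen by name as genes under the transcription factors TFEB and TFE3, and every probe that the array files name for them was taken, which gave 46 of the 55681 probes and 31 of the 34821 genes or transcripts. The study asked how the kinase AKT affects the reprogramming of fibroblasts into induced pluripotent stem cells. All cells were mouse embryonic fibroblasts pooled from male E13.5 embryos that carry an EGFP reporter under control of Oct4 (OE-MEFs), and all were infected with retroviruses for Oct4, Sox2 and Klf4 (OSK). OSKA cells also received a retrovirus for AKT-MER, a myristoylated AKT fused to a modified estrogen receptor that becomes active when 4-hydroxytamoxifen (4OHT) binds. 4OHT or its ethanol vehicle was given from 3 days postinfection (dpi), and RNA was taken at 8 dpi. Each of the 4 groups had 1 array. Sets of 4 values below run from OSK cells on vehicle to OSK cells on 4OHT, then OSKA cells on vehicle, and end with the AKT-activated cells, which are OSKA cells on 4OHT. A free-text label of the AKT-activated array is worded for AKT-MER left inactive, and the array was placed by its title. With no replicates, no difference below has a test or a check against the spread between cultures.

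TFEB and TFE3 bind E-boxes of the form CACGTG in the promoters of lysosomal and autophagy genes. When the kinase complex mTORC1 is active on the lysosome surface, which AKT promotes, both factors are phosphorylated and kept in the cytoplasm. When mTORC1 is inactive they enter the nucleus. Fibroblasts use this pathway to recycle proteins and organelles, and macrophages, which digest engulfed material, are known for high levels of many of the same hydrolases.

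Promoter sequences from RefSeq (GRCm38.p6) were found for 25 of the 31 genes, as 30 windows that run from 250 bases before to 50 bases after the start site. The letters CACGTG, which read the same on both strands, were present for 13 of these 25 genes (52.0%). Counted over windows, 43.3% of those of the members held them, against 7.15% of all 32851 windows. The longer form TCACGTGA, which contains CACGTG, was present for 6 of the 25 genes, in 1 window each, and in 0.974% of all windows. A match describes letters and shows no binding. The following 30-base stretches are shown because they hold the longer form in a regulator, a pair of cathepsins, a glycosidase and a pair of proton pump subunits, with the motif in capitals.
Mcoln1 (chr8:3500462-3500491, plus strand): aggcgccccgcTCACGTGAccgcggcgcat
Ctsa (chr2:164833749-164833778, plus strand): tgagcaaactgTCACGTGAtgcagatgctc
Ctsd (chr7:142387908-142387937, minus strand): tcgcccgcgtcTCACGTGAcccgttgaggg
Gla (chrX:134601182-134601211, minus strand): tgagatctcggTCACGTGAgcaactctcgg
Atp6v0d1 (chr8:105566050-105566079, minus strand): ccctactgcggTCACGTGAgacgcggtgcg
Atp6v1a (chr16:44139373-44139402, minus strand): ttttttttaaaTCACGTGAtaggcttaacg

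Counted from the start site, the first motif base lay at -46 in Mcoln1, -13 in Ctsa, -99 in Ctsd, -195 in Gla, -4 in Atp6v0d1 and -132 in Atp6v1a. Ctsa and Gla each held a further copy, at 5 and -228. Lamp1 held no copy of the longer form, but its 73 bases before the start site hold 4 copies of CACGTG, shown in capitals.
Lamp1 (chr8:13159088-13159160, plus strand): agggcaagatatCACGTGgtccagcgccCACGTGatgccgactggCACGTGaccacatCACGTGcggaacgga

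A level is the log2 intensity minus that of the array's 75th percentile, which therefore has a level of 0. A difference is 1 array minus another on this scale, and the scanner software put its error at about 0.20 for these genes, which covers the measurement on the arrays and not the cultures. All 31 genes were well above background on all 4 arrays. Of 8 fibroblast genes, 8 were above background on every array. So were 10 of 10 macrophage markers, 4 of 7 pluripotent cell markers and, per array, 52.4% to 55.4% of the spots. The count of fibroblast genes therefore cannot check the labelled cell type. The arrays were also scaled to 7 spike-in probes, RNA added in known amounts, which moved the median of all genes by 0.01 for the 4OHT effect in OSKA cells, -0.31 for the 4OHT effect in OSK cells, -0.44 for AKT-MER without 4OHT and -0.13 for AKT-MER with 4OHT. The spike-in scaling moves every gene of a comparison by the same amount, so it can turn a direction in those last 3 comparisons but cannot change where a gene lies against the median of all genes.

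AKT activation, read as OSKA cells with minus without 4OHT, was accompanied by small differences in these genes. Of the 31 genes, 20 were lower and 11 higher, with a median of -0.13, and the lower share among all 20300 genes measured was 54.8% with a median of -0.03. None of the 31 differed by at least 1.5-fold, a size that 9.7% of all genes reached. The largest differences were Atp6v0d2, a subunit of the lysosomal proton pump, at 0.51, and Map1lc3b, one of the LC3 genes, at -0.41. The gene Atp6v0d2 was dim and depended on the background correction, as given below. Spike-in scaling left these directions as they were, with 20 of 31 lower and a median of -0.12.

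The same ligand in OSK cells, which lack AKT-MER, went with higher lysosomal levels. Here 22 of 31 genes were higher, with a median of 0.14, against 49.4% of all 19861 genes and a median of -0.00. The cathepsin gene Ctsd and Atp6v0d2 were at least 1.5-fold higher, 2 of 31 genes beside 4.33% of all genes. Neither call held with normexp or with spike-in scaling, under which Sqstm1 alone was 1.5-fold changed and lower, beside 11.0% of all genes, and that of Ctsd was also lost with quantile normalization and with the mean of all probes. With spike-in scaling the members' median in OSK cells was -0.17 and 24 of 31 were lower. Against the median of all genes, which no such scaling alters, 22 of 31 lay above.

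The 4OHT effects of the 2 cell types share no array. For 16 genes the level was lower with 4OHT in OSKA cells and higher with 4OHT in OSK cells, for 5 the reverse held, for 4 it was lower in both and for 6 higher in both. The same 4 classes held 27.7%, 22.7%, 27.9% and 21.7% of all genes. With spike-in scaling the members were split over these classes as 6, 10, 14 and 1 genes, against 7.62%, 40.2%, 46.7% and 5.51% of all genes. The effect in OSKA cells minus that in OSK cells was below 0 for 24 of 31 genes (77.4%), with a median of -0.31, where all 19540 genes measured on every array gave 54.3% and -0.04. Under spike-in scaling it was below 0 for 14 of 31 genes (45.2%) against 22.9% of all genes, with medians of 0.00 and 0.28. In a bulk culture, fewer cells of a type and less RNA per cell cannot be told apart.

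**Figure D1:**
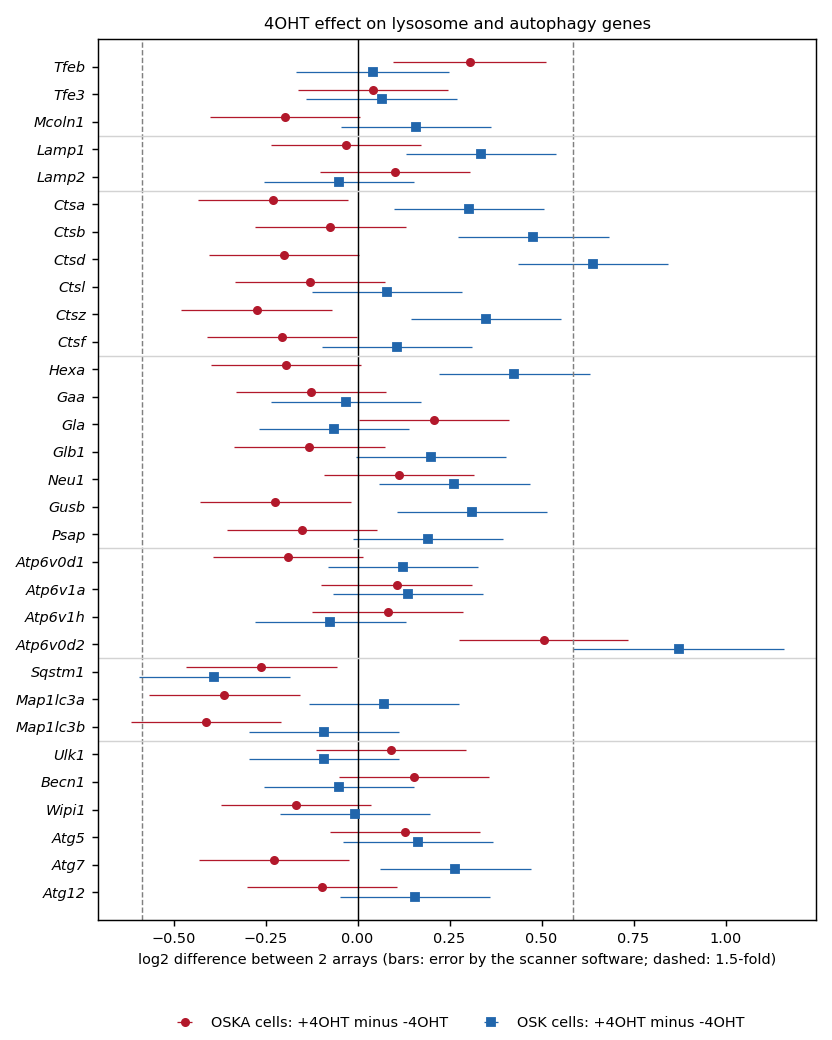
The 4OHT effect on each of the 31 genes in OSKA cells (red circles) and OSK cells (blue squares), as log2 differences between 2 arrays, with bars for the error given by the scanner software and dashed lines at 1.5-fold. The red points of all 6 cathepsins lie left of 0 and the blue ones right of it. Under spike-in scaling the OSKA points stay close to where they are, and 3 of the 6 blue cathepsin points fall left of 0.

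Cathepsins are proteases of the lysosome, and 6 of them are among the 31 genes. All 6 were lower with 4OHT in OSKA cells (median -0.20), beside 54.8% of all genes. All 6 were higher with 4OHT in OSK cells (median 0.33), beside 49.4% of all genes. With quantile normalization 5 of 6 were lower and 5 of 6 higher, and several of these differences were within the software's error. Cathepsins outside the 6 did not all share these signs, as given below with the other hydrolases. Ctsd, the main aspartic protease of the lysosome (probe on chromosome 7, 149561962 to 149562021 in build NCBI37), stood at 6.98, 7.62, 7.49 and 7.29, lowest in OSK cells without 4OHT at this scaling. Its 4OHT effect was 0.64 in OSK cells (1.56-fold) and -0.20 in OSKA cells. The second probe of Ctsd stood at 4.00, 4.03, 4.23 and 4.02, and its 4OHT effects were 0.03 and -0.21, so the probes agreed in OSKA cells only.

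Ctsb, a cysteine protease, read 7.23, 7.70, 7.62 and 7.55, with 4OHT effects of 0.48 in OSK cells and -0.07 in OSKA cells. Ctsz, a carboxypeptidase, read 5.56, 5.91, 5.93 and 5.65, and its effects were 0.35 and -0.27. Ctsa, which protects other lysosomal enzymes and acts as a carboxypeptidase, read 7.10, 7.40, 7.33 and 7.10, with effects of 0.30 and -0.23. Its second probe gave 0.43 and -0.29. In these 3 genes the 2 middle arrays were high and OSK cells without 4OHT were at the bottom, together with AKT-activated cells in Ctsa. The order of the arrays depended on the scaling, since with spike-in scaling AKT-activated cells were lowest for 6 of 6 cathepsins, Ctsd included, and OSK cells without 4OHT were lowest for 0 and highest for 3 of the 6.

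Ctsl, a broadly expressed cysteine protease, moved less, at 6.76, 6.84, 6.83 and 6.70. Ctsf, another cysteine protease, read 1.54, 1.65, 1.55 and 1.34. In both, AKT-activated cells were lowest, and no difference of Ctsl exceeded the software's error at this scaling. For AKT-MER without 4OHT, a comparison that shares the OSK array without 4OHT with the one above, all 6 cathepsins had positive differences (median 0.30). For AKT-MER with 4OHT all 6 were negative (median -0.28), but not under every alternative. With quantile normalization OSK cells with 4OHT were the lowest array for 1 of the 6. With normexp AKT-activated cells were the highest array for 1 of the 6. Quantile normalization also brought this difference from -0.30 to -0.08 for Ctsa and from -0.33 to -0.09 for Ctsd. With spike-in scaling the medians of the 4 comparisons were -0.19 for 4OHT in OSKA cells, 0.02 for 4OHT in OSK cells (3 higher and 3 lower), -0.14 for AKT-MER without 4OHT (5 of 6 lower) and -0.41 for AKT-MER with 4OHT. With or without spike-in scaling, all 6 lay below the median of all genes for 4OHT in OSKA cells and for AKT-MER with 4OHT. They lay above it in the other 2 comparisons.

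**Figure D2:**
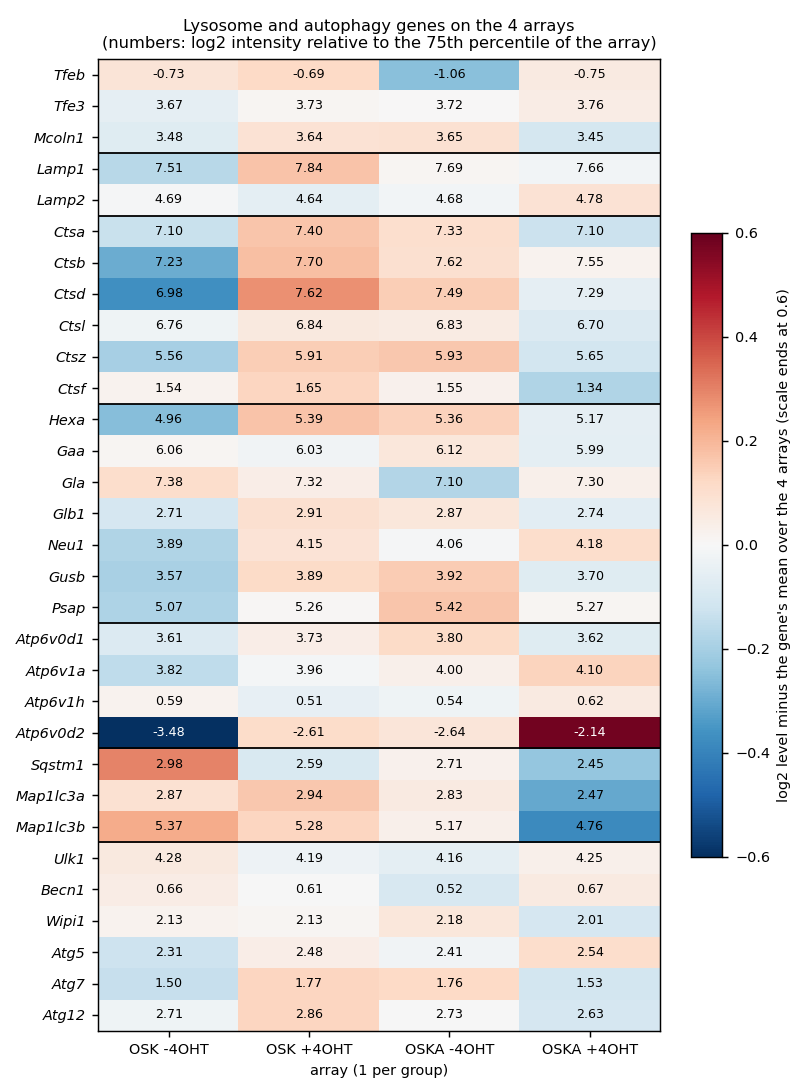
Levels of the 31 genes (rows, grouped by role between black lines) on the 4 arrays (columns). Numbers are log2 levels, with 0 at the array's 75th percentile, and colours show each gene's level minus its own mean over the 4 arrays, with the colour scale ending at 0.6. Ctsb, Ctsd and Hexa are blue in OSK cells without 4OHT, and Map1lc3a and Map1lc3b are blue in AKT-activated cells; under spike-in scaling OSK cells without 4OHT are instead the highest array for 24 of the 31 genes.

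Glycosidases strip sugars from glycoproteins, glycogen and glycolipids in the lysosome, and saposins, cut from prosaposin, present lipids to them. These 7 genes followed the cathepsins in part. With 4OHT in OSKA cells 5 of 7 were lower (median -0.13), beside 54.8% of all genes. With 4OHT in OSK cells 5 of 7 were higher (median 0.20), beside 49.4% of all genes. Spike-in scaling gave a median of -0.11 in OSK cells, with 5 of 7 above the median of all genes. Hexa, a hexosaminidase subunit, stood at 4.96, 5.39, 5.36 and 5.17, with effects of -0.19 in OSKA cells and 0.43 in OSK cells. Gusb, the beta-glucuronidase gene, read 3.57, 3.89, 3.92 and 3.70, and its 10 spots per array had SDs of 0.0437 to 0.0710. The effects on Gusb were -0.22 and 0.31, but its second probe gave 0.10 in OSKA cells and 0.30 in OSK cells.

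Psap, the prosaposin gene, read 5.07, 5.26, 5.42 and 5.27, highest in OSKA cells without 4OHT at this scaling. Glb1, the beta-galactosidase gene, stood at 2.71, 2.91, 2.87 and 2.74. Neu1, the sialidase gene, stood at 3.89, 4.15, 4.06 and 4.18 and was higher with 4OHT in both cell types, by 0.26 in OSK cells and 0.11 in OSKA cells. Gla, the alpha-galactosidase gene, went another way, at 7.38, 7.32, 7.10 and 7.30, with an AKT-MER effect without 4OHT of -0.28. Gaa, which degrades glycogen, differed by at most 0.13 on its brightest probe, at 6.06, 6.03, 6.12 and 5.99, but a dimmer probe gave -0.63 for 4OHT in OSK cells.

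Most macrophage markers had the signs of the cathepsins across these arrays. Of 10 macrophage markers, 10 were above background on all arrays, and their summed signal was 280, 406, 394 and 352 times the 75th percentile. With 4OHT in OSK cells 9 of 10 were higher, beside 49.4% of all genes, with a median of 0.61 (0.30 with spike-in scaling, 9 of 10 above the median of all genes). With 4OHT in OSKA cells 9 of 10 were lower, beside 54.8% of all genes. The median there was -0.17, within the software's error of about 0.20. Csf1r, the receptor for the growth factor that keeps macrophages alive, stood at 5.91, 6.51, 6.50 and 6.33, an effect of 0.60 with 4OHT in OSK cells, where its dimmer probes gave 0.32 and 0.12. Tyrobp, a signalling adaptor of myeloid cells, stood at 5.13, 5.82, 5.69 and 5.48. Itgam, an integrin of the same cells, differed on its brightest probe, at 4.59, 4.30, 4.41 and 3.91, while its dimmer probes gave 0.66 and 0.36 for 4OHT in OSK cells, like the other markers. The summed signal of 7 pluripotent cell markers was 3.32, 4.46, 4.55 and 3.18 times the 75th percentile. At this scaling Nanog (0.53 with 4OHT in OSK cells, -0.19 in OSKA cells) and Tdgf1 (0.46 and -0.73) had the cathepsins' signs. Dppa5a (-0.20 and 0.53) and Lin28a (-0.15 and 0.08) had the opposite ones. The part of macrophages or pluripotent cells in the cathepsin and glycosidase values was not tested.

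The relatives of TFEB and TFE3 were read as well. Tfec, a member of the family found mainly in macrophages, read -1.85, -1.09, -1.21 and -1.42, with effects of 0.76 in OSK cells and -0.21 in OSKA cells. Mitf, known from pigment cells and osteoclasts, read 1.94, 2.21, 2.21 and 2.04, with effects of 0.27 and -0.17, and of 0.82 and -0.27 on its second probe. Both were lowest in OSK cells without 4OHT at this scaling only, and both lay above the median of all genes for 4OHT in OSK cells (spike-in scaling takes 0.31 from the OSK effects).

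**Figure D3:**
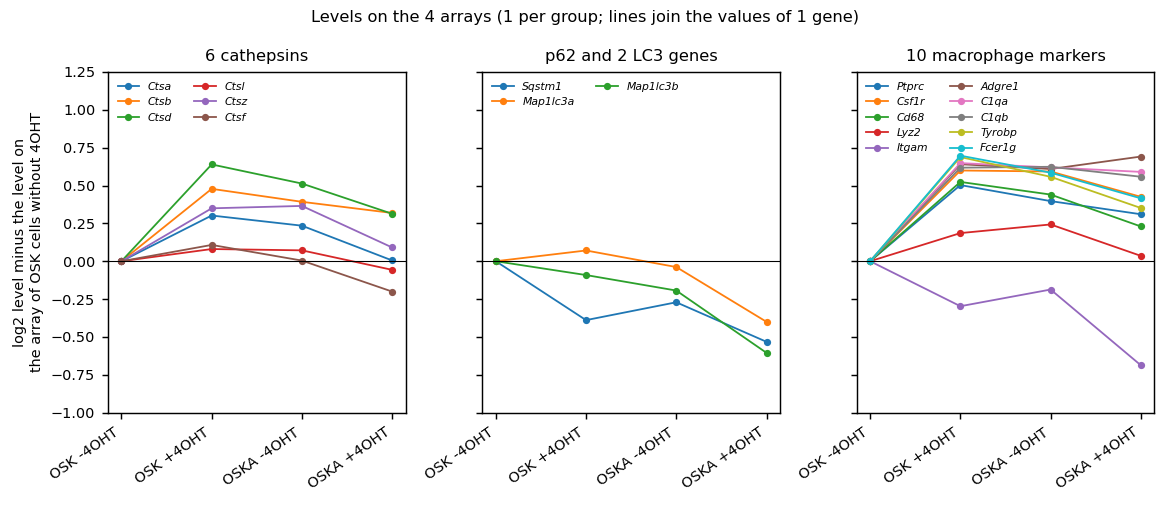
Log2 level on each array minus the level in OSK cells without 4OHT, for 6 cathepsins, Sqstm1 (p62) with 2 LC3 genes, and 10 macrophage markers; lines join the values of 1 gene. Of the 10 markers, 9 lie above 0 in OSK cells with 4OHT, as do all 6 cathepsins, and Sqstm1 and the LC3 genes are lowest in AKT-activated cells. With spike-in scaling, 8 of the 10 markers and 3 of the 6 cathepsins are above 0 in OSK cells with 4OHT.

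The autophagy genes for LC3 and its cargo adaptor were lowest in AKT-activated cells on their brightest probes, the array that was also lowest for 37.5% of all genes (49.3% with spike-in scaling). LC3 proteins are attached to the membrane of the forming autophagosome, and p62, encoded by Sqstm1, binds both LC3 and the material to be degraded. Map1lc3b (probe on chromosome 8, 124121771 to 124121830) stood at 5.37, 5.28, 5.17 and 4.76, measured from 10 spots whose SD was 0.0222 to 0.0563 per array. AKT-activated cells were the lowest array, with differences of -0.41 for 4OHT in OSKA cells (a ratio of 0.75, beside a software error of 0.20), -0.51 for AKT-MER with 4OHT, -0.09 for 4OHT in OSK cells and -0.19 for AKT-MER without 4OHT. Spike-in scaling gave -0.40, -0.64, -0.40 and -0.64 in the same order.

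Map1lc3a, the second LC3 gene, stood at 2.87, 2.94, 2.83 and 2.47, with AKT-activated cells lowest. Its differences were -0.36 for 4OHT in OSKA cells and 0.07 for 4OHT in OSK cells, or -0.35 and -0.24 with spike-in scaling. Sqstm1 read 2.98, 2.59, 2.71 and 2.45, and was lower with 4OHT in both cell types, by -0.26 in OSKA cells and -0.39 in OSK cells. A much dimmer probe of Sqstm1 read -1.85, -1.79, -2.26 and -2.15, lowest in OSKA cells without 4OHT, and gave 0.11 for 4OHT in OSKA cells.

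The regulators themselves did not share a pattern. Tfe3 was nearly level at 3.67, 3.73, 3.72 and 3.76, and its second probe stood at 1.31, 1.27, 1.30 and 1.28. Tfeb stood at -0.73, -0.69, -1.06 and -0.75, where OSKA cells without 4OHT were lowest, with a 4OHT effect in OSKA cells of 0.31 beside an error of 0.21. Its AKT-MER effect without 4OHT was -0.33, and -0.77 with spike-in scaling, where it was past 1.5-fold. Mcoln1, which encodes a calcium channel of the lysosome that feeds back on TFEB, read 3.48, 3.64, 3.65 and 3.45. A second, very dim probe of Mcoln1 read -4.04, -4.23 and -3.80 and was not well above background in AKT-activated cells, which makes it at least 1.95-fold lower with 4OHT in OSKA cells. These are RNA levels, and whether the proteins were in the nucleus was not measured.

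The membrane glycoproteins that line the lysosome showed no shared direction. Lamp1, whose promoter holds the 4 E-boxes above, stood at 7.51, 7.84, 7.69 and 7.66, with a 4OHT effect of 0.34 in OSK cells (0.03 with spike-in scaling) and -0.03 in OSKA cells. Lamp2, which is also needed for chaperone-mediated autophagy, read 4.69, 4.64, 4.68 and 4.78. Its second probe, matched to another transcript accession, read 3.30, 3.48, 3.46 and 3.41.

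Subunits of the V-ATPase, the pump that acidifies the lysosome, were 4 in number, and Atp6v0d2 had the widest range of the 31 genes over the arrays, which did not hold in every comparison under another background correction. Its probe (chromosome 4, 19805367 to 19805426) read -3.48, -2.61, -2.64 and -2.14, lowest in OSK cells without 4OHT and highest in AKT-activated cells. The differences were 0.51 for 4OHT in OSKA cells, 0.87 for 4OHT in OSK cells (1.83-fold), 0.84 for AKT-MER without 4OHT (1.79-fold) and 0.47 for AKT-MER with 4OHT. The gene was dim, and with another background correction (normexp) the same differences were 0.33, 0.31, 0.26 and 0.28, so that Map1lc3b (-0.41) and Ctsd (0.53) differed more with 4OHT in OSKA and in OSK cells. A second probe was above background in OSKA cells only, at -4.38 without and -4.19 with 4OHT.

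Atp6v0d2 is known as a subunit of osteoclasts and macrophages, so 7 osteoclast markers were read beside it. Their summed signal was 14.9, 16.5, 18.6 and 28.8 times the 75th percentile, nearly all of it from Ctsk and Acp5, with 4 of 7 above background on the first 3 arrays and 5 of 7 in AKT-activated cells. Acp5, the acid phosphatase that marks osteoclasts, stood at 0.87, 1.03, 1.46 and 3.00, highest in AKT-activated cells like Atp6v0d2, and its difference with 4OHT in OSKA cells was 1.54. Ctsk, the collagen-degrading cathepsin of osteoclasts, stood at 3.67, 3.81, 3.95 and 4.34, and Ocstamp at -3.77, -3.61, -3.29 and -3.01, so their 4OHT effects in OSKA cells were 0.39 and 0.28. Oscar was -0.14 in that comparison. Mmp9 was above background in AKT-activated cells only, at least 3.66-fold higher than in OSKA cells without 4OHT, and Calcr and Dcstamp were not above background on any array. The part of such cells in the Atp6v0d2 values was not tested. The broadly expressed subunits differed less. Atp6v0d1 read 3.61, 3.73, 3.80 and 3.62, Atp6v1a read 3.82, 3.96, 4.00 and 4.10, and Atp6v1h read 0.59, 0.51, 0.54 and 0.62.

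Genes that start autophagy and conjugate LC3 had a median of -0.00 for 4OHT in OSKA cells and split into 3 higher and 3 lower. Ulk1, the kinase that mTORC1 restrains, stood at 4.28, 4.19, 4.16 and 4.25. Becn1, a part of the lipid kinase complex of the early autophagosome, read 0.66, 0.61, 0.52 and 0.67. Neither differed by more than the software's error at this scaling, and with spike-in scaling Becn1 was at -0.59 for AKT-MER without 4OHT, past 1.5-fold. Atg5 and Atg12, whose proteins are joined to each other, read 2.31, 2.48, 2.41 and 2.54 and 2.71, 2.86, 2.73 and 2.63.

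Atg7, the enzyme that activates both LC3 and ATG12, read 1.77 and 1.76 in OSK cells with 4OHT and OSKA cells without it, 1.53 in AKT-activated cells and slightly less in OSK cells without 4OHT, with effects of -0.23 in OSKA cells and 0.27 in OSK cells, and so had the signs of the 6 cathepsins. Its second, dimmer probe gave -0.39 and -0.17. Wipi1, which binds the lipid of the forming autophagosome, stood at 2.13, 2.13, 2.18 and 2.01, and its 2 dimmer probes were lower with 4OHT in OSKA cells by -0.38 and -0.42.

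The AKT-MER comparisons reuse the same 4 arrays, so their values restate those levels from another side. Without 4OHT, 22 of 31 genes had a higher level in the OSKA culture (47.0% of all 20183 genes), with a median of 0.10, and Atp6v0d2 alone was at least 1.5-fold higher, beside 5.66% of all genes. With 4OHT, 21 of 31 were lower in OSKA cells (57.1% of all 19846 genes), with a median of -0.14, and 0 reached 1.5-fold, beside 10.6% of all genes. The comparison without 4OHT changed direction with spike-in scaling (29 of 31 lower, median -0.34). The call of Atp6v0d2 was lost with normexp and with spike-in scaling, and under the latter 5 other members were at least 1.5-fold lower, beside 29.0% of all genes. Against the median of all genes, 23 of 31 lay above in that comparison. The comparison with 4OHT then had 28 of 31 lower and a median of -0.27, with 2 at least 1.5-fold lower beside 9.01% of all genes, and 19 of 31 lay below the median of all genes.

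**Figure D4:**
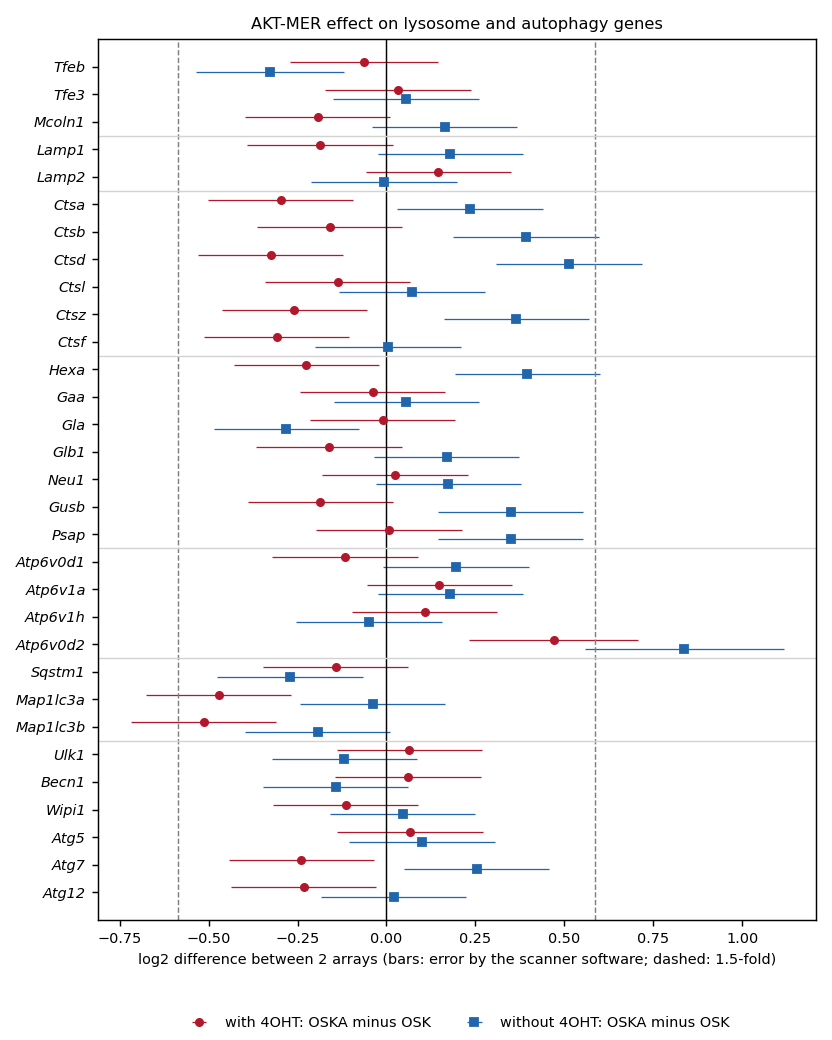
The AKT-MER effect on each of the 31 genes with 4OHT (red circles) and without it (blue squares), as log2 differences between OSKA and OSK arrays, with bars for the error given by the scanner software and dashed lines at 1.5-fold. Only Atp6v0d2 without 4OHT (0.84) passes a dashed line, and Map1lc3b with 4OHT (-0.51) is the lowest point. Spike-in scaling moves the blue points by -0.44 and the red ones by -0.13.

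By array, OSK cells without 4OHT were the lowest of the 4 for 16 of 31 genes (51.6%) and for 27.2% of all genes. AKT-activated cells were lowest for 9 of 31 (29.0%) and for 37.5% of all genes. OSK cells with 4OHT were the highest array for 12 of 31 genes (38.7%), against 22.1% of all genes, but with quantile normalization for 5 of 31 (16.1%) against 19.1%, and with normexp for 7 of 31 (22.6%) against 19.0%. With quantile normalization the array of OSKA cells without 4OHT was highest for 13 of 31 (41.9%) against 18.5% of all genes. Under spike-in scaling AKT-activated cells were lowest for 20 of 31 genes (64.5%) against 49.3% of all genes, and OSK cells without 4OHT highest for 77.4% against 78.8%.

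The E-box letters divided the members into groups that were described side by side. The 13 members with CACGTG, Ctsd, Ctsa, Mcoln1 and Lamp1 among them, had a median of -0.13 for 4OHT in OSKA cells, with 10 lower (54.8% of all genes were), and 0.16 for 4OHT in OSK cells, with 11 higher (49.4% of all genes were). The 12 members whose promoters lacked it had medians of -0.16, with 7 lower, and 0.05, with 7 higher. For 4OHT in OSKA cells the median was thus lower without the letters than with them. These groups are small, and a difference between them was not tested. In the 6 with TCACGTGA the medians were -0.19 and 0.15, and in the 6 genes with no promoter entry 0.00 and 0.11. Spike-in scaling takes 0.31 from each of the OSK medians, which puts all 4 below 0.

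Further genes of the pathway, 139 in 5 lists that contain none of the 31, gave 135 measured genes with a median of -0.09 for 4OHT in OSKA cells (85 lower, beside 54.8% of all genes) and 0.05 for 4OHT in OSK cells (80 higher, beside 49.4% of all genes; a median of -0.26 with spike-in scaling). Other autophagy genes were lower in AKT-activated cells, 28 of 34 measured, beside 54.8% of all genes, with a median of -0.17 against -0.03 for all genes. For AKT-MER with 4OHT 26 of 34 were lower, beside 57.1% of all genes, with a median of -0.19 against -0.05. Of the 34, 2 were at least 1.5-fold lower with 4OHT in OSKA cells, beside 4.64% of all genes, and 1 was at least 1.5-fold higher, beside 5.06%. Wdr45, a relative of Wipi1, stood at 2.91, 2.77, 2.66 and 1.92, a difference of -0.75 for 4OHT in OSKA cells (-0.66 on its second probe), and AKT-activated cells were again the lowest array, as for the LC3 genes. Atg9b, a lipid scramblase of the autophagosome, was dim, at -4.26, -2.95, -3.23 and -3.90, with a difference of -0.67.

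Other lysosomal hydrolases and their cofactors, 33 genes, had 21 lower for 4OHT in OSKA cells (median -0.10, beside 54.8% lower among all genes). For 4OHT in OSK cells 23 were higher (median 0.16, beside 49.4% higher among all genes). Spike-in scaling gave a median of -0.14 there, with 25 of 33 above the median of all genes. The other 12 and 10 went the opposite way. Of the cathepsins in this list, named here after their values were seen, Ctsk was higher with 4OHT in OSKA cells by 0.39, Ctss by 0.08 and Ctsh by 0.04, while Ctsc was at -0.14 and Ctso at -0.34. In OSK cells Ctso alone of these 5 was lower, at -0.14. Lipa, the acid lipase that frees cholesterol from lipoproteins, read 2.36, 2.82, 3.03 and 2.64. Idua, an enzyme of glycosaminoglycan breakdown, was lower with 4OHT in both cell types on its brightest probe, at 4.41, 4.16, 4.19 and 3.69, but higher with it in OSK cells on its second, at 1.41, 1.67, 1.59 and 1.38. In the list of 22 membrane and sorting genes the medians were -0.04 and 0.12. Slc17a5, which exports sialic acid, read 3.53, 3.27, 3.45 and 2.84 (4OHT effects of -0.60 in OSKA cells and -0.26 in OSK cells, and of -0.22 and 0.17 on a dimmer probe), and Gpnmb, a glycoprotein of macrophages and other lysosome-rich cells, read 2.38, 2.74, 2.70 and 2.19.

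The other V-ATPase subunits, 19 of 21 measured, had a median of 0.03 for 4OHT in OSKA cells, and 0.16 with the ligand in OSK cells. In OSK cells 16 of 19 were higher, beside 49.4% of all genes, and as many lay above the median of all genes. With spike-in scaling 16 of 19 were lower. Atp6v1c2, an isoform of restricted tissues, read -2.72, -2.70, -3.24 and -2.34, and Atp6v0e2 read 2.61, 2.14, 2.17 and 2.83. At this scaling, though not with spike-in scaling, both were highest in AKT-activated cells, by 0.91 and 0.66 over OSKA cells without 4OHT. For mTORC1 and its regulators on the lysosome, 27 of 28 measured, the medians were -0.06 and 0.02. Sesn2 and Sesn3, sestrins that restrain mTORC1, were highest in AKT-activated cells, at 2.50, 2.66, 2.99 and 3.38 for Sesn2 and 0.59, 0.88, 1.21 and 1.72 for Sesn3.

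**Figure D5:**
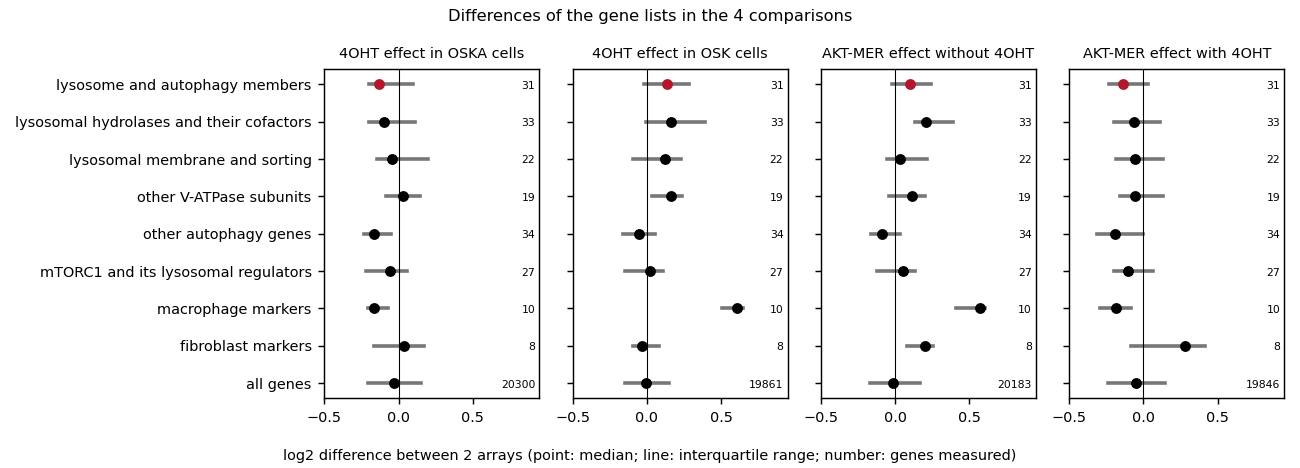
Log2 differences of the gene lists in the 4 comparisons, with the median as a point, the interquartile range as a line and the number of genes measured at the right. Macrophage markers lie farthest from 0 in OSK cells with 4OHT (0.61) and for AKT-MER without 4OHT (0.57), and other autophagy genes lie at -0.17 with 4OHT in OSKA cells. With spike-in scaling every point of a panel moves by 0.01, -0.31, -0.44 or -0.13, from left to right, so that most list medians for 4OHT in OSK cells and for AKT-MER without 4OHT then lie under 0.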

How the data were processed

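RNA of 4 cultures was hybridised to 4 single-colour Agilent arrays. All were on 1 slide, where each group had its own position, and the effects of position and group cannot be told apart. Per the labels and file headers, 100 ng of RNA per culture was turned into Cy3-labelled cRNA, and the deposited intensity of each spot had been corrected for background and trends by Agilent Feature Extraction 10.7.3.1, named in the submitters' processing notes, with nothing normalized between arrays. The authors' series matrix holds the same intensity, rounded (ratio 0.995 to 1.005). It was used as an alternative.

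Of 62976 spots, 59305 were not controls. Spots the scanner software marked as uneven or outlying (104 to 155 per array) were dropped, and 0 were saturated. Log2 of the deposited intensity minus the array's 75th percentile (intensity 462, 377, 403 and 383) gave the level. The share of spots above background was 52.4% to 55.4%. The number of arrays limits the precision. Spots of a probe were averaged, and a gene, as named in the files, was read from its brightest probe. Of the 46 member probes, 41 had an accession in the RefSeq table, and all 41 carried the same symbol there. A difference needed both arrays above background. With 1 array per group no test was run, and 1.5-fold was the size counted, with 2-fold as an alternative. Scripts used Python 3.11.15, pandas 2.3.3, R 4.3.3 and limma 3.58.1 (normexp, offset 50, and quantile normalization as an alternative), and were tested on simulated data.

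The members and lists were chosen with earlier results of these data known. Named were all 31 members, the 2 genes of each further list with the largest difference with 4OHT in OSKA cells, Mitf and Tfec. Named after their values were seen were 5 further cathepsins and, among the cell type markers, Csf1r, Tyrobp, Itgam, Nanog, Tdgf1, Dppa5a, Lin28a and the 7 osteoclast genes.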

Additional observations from a re-analysis of the deposited data

Results flagged for a closer look

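In 4 genes the 4OHT effect had opposite signs in OSKA and OSK cells and was larger than the software's error in both. Ctsa gave -0.23 in OSKA cells and 0.30 in OSK cells, Ctsz gave -0.27 and 0.35, Gusb gave -0.22 and 0.31, and Atg7 gave -0.23 and 0.27. Each effect rests on 1 array per group, and the difference between the cell types was not tested. The second probes of Gusb and Atg7 did not share the opposite signs, and with spike-in scaling the OSK effects are -0.00 for Ctsa, 0.04 for Ctsz, 0.01 for Gusb and -0.04 for Atg7. That scaling moves every gene alike, and against the median of all genes the 4 lay below it in OSKA cells and above it in OSK cells. Under each of the other alternatives the 4 had opposite signs, though not always beyond the software's error.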

How the results depend on the processing

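Over the alternatives, the members' median ranged from -0.13 to -0.09 for 4OHT in OSKA cells and from -0.27 to -0.05 for AKT-MER with 4OHT, always below 0. Scaling to spike-in probes turned the median to -0.17 for 4OHT in OSK cells and to -0.34 for AKT-MER without 4OHT by shifting every gene of a comparison alike. The other alternatives moved at most 5 of the 124 single differences of members by more than their error. The members at least 1.5-fold changed with 4OHT in OSK cells were 2 (Ctsd and Atp6v0d2, higher), but 1 with quantile normalization and 1 with the mean of all probes (Atp6v0d2 in both), 0 with normexp and 0 at 2-fold. With spike-in scaling the count was 1, a different gene in the opposite direction (Sqstm1, lower, beside 11.0% of all genes). For AKT-MER without 4OHT the count of 1 (Atp6v0d2, higher) became 0 with normexp and 0 at 2-fold. With spike-in scaling it became 5, none of them Atp6v0d2 and all lower (Becn1, Gla, Map1lc3b, Sqstm1 and Tfeb), beside 29.0% of all genes at least 1.5-fold lower, and for AKT-MER with 4OHT the count of 0 became 2 with spike-in scaling (Map1lc3a and Map1lc3b, lower, beside 9.01% of all genes). With 4OHT in OSKA cells the count was 0 under each alternative. No paired analysis was possible because each group has 1 array. The differences of most members are near the software's error, and without replicate cultures smaller ones cannot be placed.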
